A study of Mus musculus with 16 samples.

Results

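Antibody variable (V) gene segments encode most of the antigen-binding part of an antibody chain. They were taken here as every row of the deposited gene table annotated with the biotype IG_V_gene, which gave 213 of 43432 gene rows. Of these, 113 were heavy chain segments (Ighv) on chromosome 12, 97 were kappa light chain segments (Igkv) on chromosome 6 and 3 were lambda light chain segments (Iglv) on chromosome 16. The heavy segments fell into 16 numbered families and the kappa segments into 19, a family being a set of segments of similar sequence that share the number before the hyphen.

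RNA was sequenced from 4 KO and 4 Flox samples of splenic B cells from C57B6L/J mice, and the series is titled for targets of miR-221/222-3p. Cells of either genotype spent 4 days in culture with anti-CD40 at 500 ng/ml, IL-4 at 25 ng/ml and IL-21 at 10 ng/ml, a mix that mimics T cell help. The Mir221 row was at 0 in all 4 KO libraries, against 0, 0, 3.5 and 1.0 normalised counts in Flox 1 to 4, and the Mir222 row was at 0 in all 8, so these rows check the genotype labels little. The Cre line, if any, the ages and the number of mice behind a sample are not given in the sources used here, so p-values cover only the variation among these samples, which may be technical in part. Ago2 HITS-CLIP, which sequences RNA fragments crosslinked to the miRNA-binding protein Ago2, was run on 4 KO and 4 Flox samples of the same kind of culture.

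As a B cell develops, it joins a V segment to a D and a J segment at the heavy locus, and a V to a J segment at a light chain locus. It normally transcribes the joined segment of each chain together with a constant region. V segment RNA in a population of B cells is therefore a read-out of which segments its cells had joined, weighted by how much antibody RNA each cell makes. In mice, kappa chains are much more common than lambda chains. Choice of segment is made in the bone marrow by the RAG recombinase, before the mature spleen stage sampled here.

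Of the 213 segments, 207 had a read in at least 1 library and 6 were at 0 in all 8 (Ighv7-2, Ighv16-1, Ighv1-24, Ighv1-62-1, Ighv1-71 and Igkv1-131). A count of 0 still allows an expected count of up to about 3 reads in a library. A mean normalised count of at least 10 over the 8 libraries was required for testing, and 187 segments passed: 93 heavy, 91 kappa and 3 lambda. Just inside that limit were Igkv4-71 at 12.6 and Ighv8-4 at 12.9, and just outside it were Ighv1-56 at 9.94 and Ighv1-37 at 8.83. Library depth was 22947689 to 39236132 reads in KO and 25421025 to 39616596 in Flox, and 75537 to 196645 reads per library lay on V segments. Summed B cell markers reached 93570 to 117573 normalised counts in KO and 107703 to 113945 in Flox, whereas neutrophil markers summed to at most 2.1 in KO and 1.5 in Flox, and NK cell markers to at most 11.6 in KO and 9.3 in Flox. T cell markers summed to 27.4 to 84.1 in KO and 55.6 to 99.2 in Flox, macrophage markers to 352 to 534 in KO and 324 to 462 in Flox, and erythroid markers to 6.9 to 50.8 in KO and 35.3 to 67.1 in Flox. KO 3 stood apart from the other libraries in several of the results that follow, and values without it are given beside many of those.

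V segments made up 0.332, 0.329, 0.633 and 0.501% of all normalised counts in KO 1 to 4, against 0.307, 0.332, 0.435 and 0.471% in Flox 1 to 4. The groups overlapped, and KO 3 was the highest library. The means were 0.449 ± 0.147% in KO and 0.386 ± 0.0794% in Flox (SD, n = 4 each), with an exact two-sided permutation p of 0.457; the difference of 0.0625 percentage points was 0.00093 without KO 3. The smallest p that 4 against 4 libraries can give is 0.0286. In bulk RNA, a different number of antibody-secreting cells and a different amount of antibody RNA per cell cannot be told apart. Plasma cell markers summed to 75674 to 92897 in KO and 78922 to 103467 in Flox; among them Jchain, which links antibody units into polymers, averaged 9829 ± 3682 in KO and 10311 ± 3742 in Flox, and Mzb1, an endoplasmic reticulum chaperone for antibody assembly, averaged 24486 ± 5830 in KO and 34392 ± 7067 in Flox. Mzb1 was lowest in KO 3, at 16235. Other markers of the list had higher means in KO: Prdm1, a transcription factor of plasma cell differentiation, averaged 1341 ± 585 in KO and 862 ± 244 in Flox and was highest in KO 3, and Irf4, another such factor, averaged 20762 ± 1389 in KO and 18625 ± 1087 in Flox. None of the 6 markers tested passed the adjusted threshold in limma, and 1, Mzb1, had an unadjusted p under 0.05. Tnfrsf17, the plasma cell survival receptor BCMA, was at or near 0, with at most 3.8 in KO and 4.4 in Flox. The part of these markers in the V segment signal was not tested.

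Heavy segments held 26.8, 24.2, 33.8 and 28.6% of V segment signal in KO 1 to 4, against 25.2, 25.0, 27.1 and 25.6% in Flox 1 to 4. KO 3 had the highest heavy share and the groups overlapped. The difference was 2.62 percentage points (means 28.3 ± 4.05% in KO and 25.7 ± 0.961% in Flox; p = 0.257 by exact permutation), and 0.819 without KO 3. Kappa segments held 67.8, 71.2, 63.3 and 68.3% in KO, against 70.7, 70.7, 68.2 and 70.1% in Flox (means 67.7 ± 3.28% in KO and 69.9 ± 1.16% in Flox; p = 0.343 by exact permutation), a difference of -2.28 points that was -0.83 without KO 3. Lambda segments held 5.44, 4.59, 2.94 and 3.06% in KO, against 4.15, 4.31, 4.66 and 4.29% in Flox (means 4.01 ± 1.21% in KO and 4.35 ± 0.217% in Flox; p = 0.514 by exact permutation). The 4 Flox libraries lay within a narrow band for lambda, while KO 1 lay above it, KO 2 inside it and KO 3 and KO 4 below it. Adjusted by Benjamini-Hochberg over the 8 such values computed per library, every exact permutation p was between 0.762 and 0.771.

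**Figure D1:**
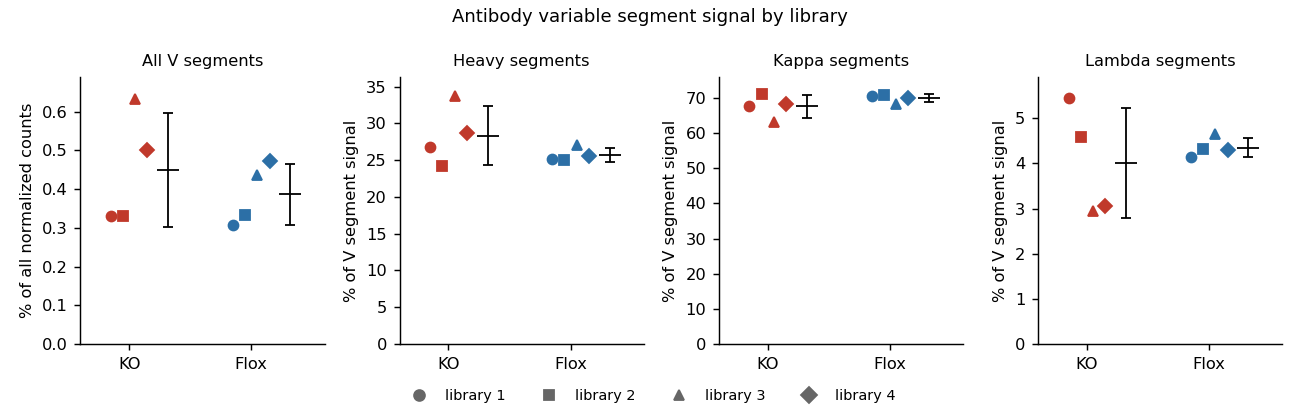
Each panel plots the 8 libraries as points, KO left of Flox, with the mean and SD as a bar beside each group; the first panel gives V segments as % of all normalised counts and the others give each chain as % of V segment signal. KO 3 (triangle) reaches 0.633% of all counts and 33.8% heavy share, and the groups overlap in every panel.

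Heavy V signal relative to the summed heavy constant genes was 0.0616, 0.0686, 0.1004 and 0.0695 in KO 1 to 4, against 0.0616, 0.0657, 0.0686 and 0.0646 in Flox 1 to 4 (p = 0.343 by exact permutation). KO 3 was again the highest, and the difference in means of 0.00991 was 0.00145 without it. Kappa V signal relative to Igkc, the kappa constant gene, was 0.296, 0.383, 0.446 and 0.335 in KO, against 0.374, 0.366, 0.413 and 0.405 in Flox (p = 0.571 by exact permutation). The KO libraries spread over more than the whole Flox range in this ratio, and the difference of -0.0243 was -0.0512 without KO 3 and -0.00127 without KO 1. Both ratios are of summed counts that are not divided by length.

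Usage was spread over many segments in both genotypes. Evenness, the Shannon entropy of usage divided by its maximum, so that equal use of all segments gives the top of the scale, was 0.853 ± 0.00216 in KO and 0.855 ± 0.00744 in Flox for heavy segments (p = 0.743 by exact permutation). For kappa segments it was 0.862 ± 0.00858 in KO and 0.861 ± 0.00308 in Flox (p = 0.771 by exact permutation). The smallest number of segments that together held 50% of the signal was 14 to 15 in KO and 14 to 16 in Flox for heavy chains, and 13 to 15 in KO and 13 to 14 in Flox for kappa chains. The most abundant heavy segment took 6.13 to 7.42% of heavy signal in KO and 5.46 to 7.03% in Flox.

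By counts per kb of annotated span, the 6 highest heavy segments were Ighv3-6, Ighv1-26, Ighv1-9, Ighv6-3, Ighv9-3 and Ighv1-22. Ighv3-6 (chr12:114288152-114288582, minus strand, GRCm38) had 1902, 1459, 4845 and 2222 normalised counts in KO, against 1206, 1228, 1657 and 2100 in Flox. KO 3 was the highest library, and the remaining KO libraries overlapped Flox. Per kb this was 6048 ± 3536 in KO and 3591 ± 981 in Flox, and as a share of heavy signal 6.47 ± 1.003% in KO and 5.25 ± 0.478% in Flox. Without KO 3 the KO mean was 1861 ± 383 normalised counts. Ighv1-26 followed in the mean over all 8 libraries, with 5166 ± 2126 counts per kb in KO and 4265 ± 1426 in Flox. It was above Ighv3-6 in every Flox library, and without KO 3 also in the KO mean, at 1937 ± 848 normalised counts. The gaps between the means of Ighv1-26 and Ighv3-6 were inside the SDs. Ighv1-22 had 887, 906, 2175 and 1533 normalised counts in KO, against 780, 673, 953 and 1037 in Flox, with a log2 fold change of 0.59 (SE 0.26) and a limma adjusted p of 0.324.

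The 6 highest kappa segments per kb were Igkv10-96, Igkv6-15, Igkv14-111, Igkv8-24, Igkv1-135 and Igkv1-117. Igkv10-96 (chr6:68631963-68632442, minus strand) had 3718, 4159, 7825 and 6307 normalised counts in KO, against 4639, 4655, 5755 and 5633 in Flox, which is 6.002 ± 0.388% of kappa signal in KO and 6.58 ± 0.599% in Flox. KO libraries lay on both sides of the Flox range. Igkv6-15 had 3146, 3022, 9623 and 6339 normalised counts in KO, against 3516, 3931, 4636 and 4688 in Flox. Here too the KO values lay on both sides, and KO 3 was the maximum; without it the KO mean was 4169 ± 1881, against 4193 ± 568 in Flox. Igkv1-117 was close to equal at 4016 ± 465 normalised counts in KO and 4014 ± 1037 in Flox.

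All 3 lambda segments were expressed. Iglv1 (chr16:19085017-19085500, minus strand) had 3617, 3061, 3790 and 3388 normalised counts in KO, against 2573, 2738, 4101 and 4521 in Flox, and made up 68.8 ± 3.72% of lambda signal in KO and 69.5 ± 4.36% in Flox. Iglv3 averaged 909 ± 124 in KO and 849 ± 174 in Flox, and Iglv2 averaged 679 ± 240 in KO and 645 ± 99.0 in Flox. The groups overlapped for all 3. Iglv2 and Iglv3 differed from each other by about their spread in KO, while Iglv1 was above both in every library.

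At the level of families, Ighv1, the largest in mice, held 48.9, 51.0, 52.8 and 52.1% of heavy signal in KO, against 52.5, 49.95, 52.9 and 55.0% in Flox. Ighv5 held 14.2, 11.7, 11.4 and 11.6% in KO, against 11.2, 11.7, 11.1 and 10.3% in Flox. Ighv3 held 9.19, 9.02, 9.66 and 7.32% in KO, against 7.29, 6.86, 6.52 and 8.37% in Flox. Every one of these overlapped between genotypes, with 3 of the 4 KO libraries above the Flox range for Ighv3. Ighv6 averaged 5.65 ± 1.13% in KO and 6.21 ± 0.696% in Flox.

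Among kappa families, Igkv1 averaged 14.7 ± 1.23% of kappa signal in KO and 15.7 ± 0.569% in Flox, and Igkv6 averaged 15.2 ± 1.79% in KO and 14.7 ± 0.296% in Flox. Igkv4, the family with the most members, averaged 12.3 ± 0.574% in KO and 11.2 ± 0.518% in Flox, and Igkv8 averaged 11.4 ± 0.508% in KO and 11.1 ± 0.946% in Flox. The largest families were the same ones in both genotypes.

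**Figure D2:**
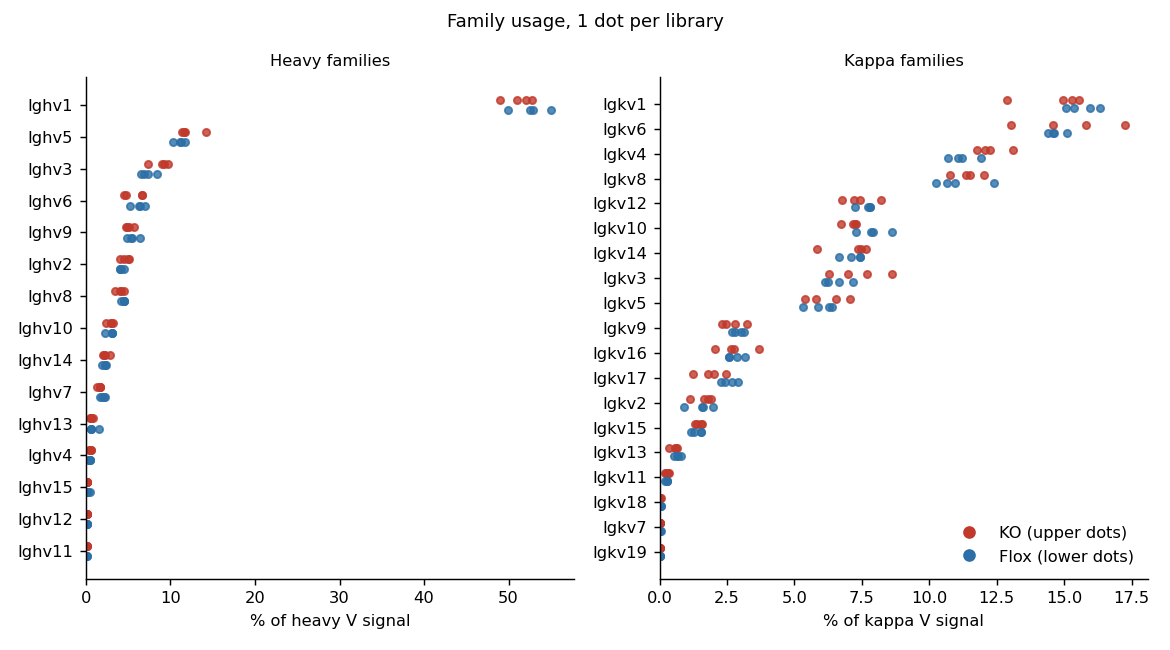
Each dot is a library, KO above Flox within a family, and the x axis gives the family's % of heavy (left) or kappa (right) V signal on a linear scale from 0. Ighv1 is near 50% of heavy signal in both genotypes, and no kappa family exceeds 17.2%.

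When families were tested as summed rows, 0 of 36 passed an adjusted p of 0.05 in limma, against 0.0696% of all rows tested. On the recovered reads edgeR called 0 families, against 0.0773% of all rows, and DESeq2 called 0, against 1.7%. At an unadjusted p under 0.05 in limma there was 1 higher in KO, Ighv12, against 7.78% of all rows, and 0 lower, against 7.57%. Every KO library was above every Flox library for 0 families by normalised counts, against 4.17% of all rows, and below for 0, against 3.83%. A log2 fold change above 0 was found for 33 families (91.7%, against 48.1% of all rows) and, without KO 3, for 19 of 36. Ighv12, a family known in mice from B-1 cell antibodies to phosphatidylcholine, held 0.158, 0.131, 0.126 and 0.117% of heavy signal in KO, against 0.0978, 0.108, 0.0967 and 0.0784% in Flox. Its shares did not overlap, and it was the only one of 34 families with a share above 0 of which that was so. The family is 1 segment of low counts, 31.3 to 82.1 normalised counts in KO and 22.5 to 33.6 in Flox. These counts did overlap (log2 fold change 0.80, SE 0.31, limma adjusted p = 0.277). Ighv11, known from antibodies of the same kind, held 0.142, 0.175, 0.0337 and 0.114% in KO, against 0.0622, 0.115, 0.0866 and 0.0581% in Flox, and KO 3 was the lowest of all 8 libraries. Igkv15 averaged 1.46 ± 0.125% in KO and 1.38 ± 0.194% in Flox.

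Tested row by row, 0 of 187 segments passed an adjusted p of 0.05 in limma, where 0.0687% of all 13091 gene rows did, and edgeR on reads recovered from the values also called 0, with 28 segments (14.97%) at an unadjusted p under 0.05, against 14.96% of all rows. Unadjusted p-values under 0.05 were reached by 18 segments higher in KO (9.63%, against 7.74% of all rows) and by 2 lower in KO (1.07%, against 7.39% of all rows). The 2 lower ones, named after their values were seen, were Igkv10-95 (log2 fold change -0.67) and Igkv17-121 (-0.41). DESeq2 called 4 of 186 segments (2.15%, against 1.52% of all rows), all higher in KO: Igkv4-63, Igkv3-12, Igkv6-25 and Ighv8-4. The authors' deposited table gives 3 of 142 segments an FDR under 0.05 (2.11%, against 1.58% of all its rows with an FDR), Igkv4-63, Ighv8-4 and Igkv6-25. It holds a log2 fold change for 207 segments but an FDR for only 142. Igkv3-12 has neither a p-value nor an FDR there.

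Igkv4-63 (chr6:69377944-69378472, minus strand) had 956, 704, 942 and 858 normalised counts in KO, against 395, 497, 650 and 648 in Flox. Every KO library lay above every Flox library. The log2 fold change was 0.68 (SE 0.17) with a limma adjusted p of 0.237 and a DESeq2 adjusted p of 0.0238. Igkv6-25 had 952, 939, 1960 and 1328 in KO, against 608, 668, 843 and 896 in Flox, and its share of kappa signal was 1.41 ± 0.133% in KO and 0.950 ± 0.0253% in Flox. Igkv3-12 had 752, 621, 1333 and 828 in KO, against 409, 433, 562 and 613 in Flox. The groups did not overlap for either. Their log2 fold changes were 0.73 for Igkv6-25 and 0.77 for Igkv3-12, with limma adjusted p of 0.241 and 0.239.

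Ighv8-4 rested on few reads. It had 11.6, 24.8, 33.5 and 14.4 normalised counts in KO, against 4.5, 3.5, 5.8 and 5.2 in Flox, which came from 11, 19, 29 and 19 reads in KO and 6, 4, 5 and 5 in Flox. The groups did not overlap, with a log2 fold change of 1.84 (SE 0.44) and a limma adjusted p of 0.237; with a pseudocount of 10 in place of 1 the log2 fold change was 1.02. Ighv7-1, the segment of the T15 antibodies to phosphorylcholine, had 124, 111, 252 and 124 in KO, against 56.3, 43.6, 107 and 86.8 in Flox. Its KO libraries were all above Flox, the lowest by a few counts. Ighv5-9-1 averaged 403 ± 95.9 in KO and 249 ± 71.6 in Flox, and Igkv1-133 averaged 217 ± 62.1 in KO and 131 ± 30.3 in Flox, both with overlapping groups. Ighv1-67 had 67.6, 80.9, 99.4 and 65.2 in KO, against 47.3, 46.2, 46.3 and 40.3 in Flox. Near-identical segments can share reads, and how reads mapping to several places were counted is not given in the sources used here, so values of single segments are less certain than those of families.

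**Figure D3:**
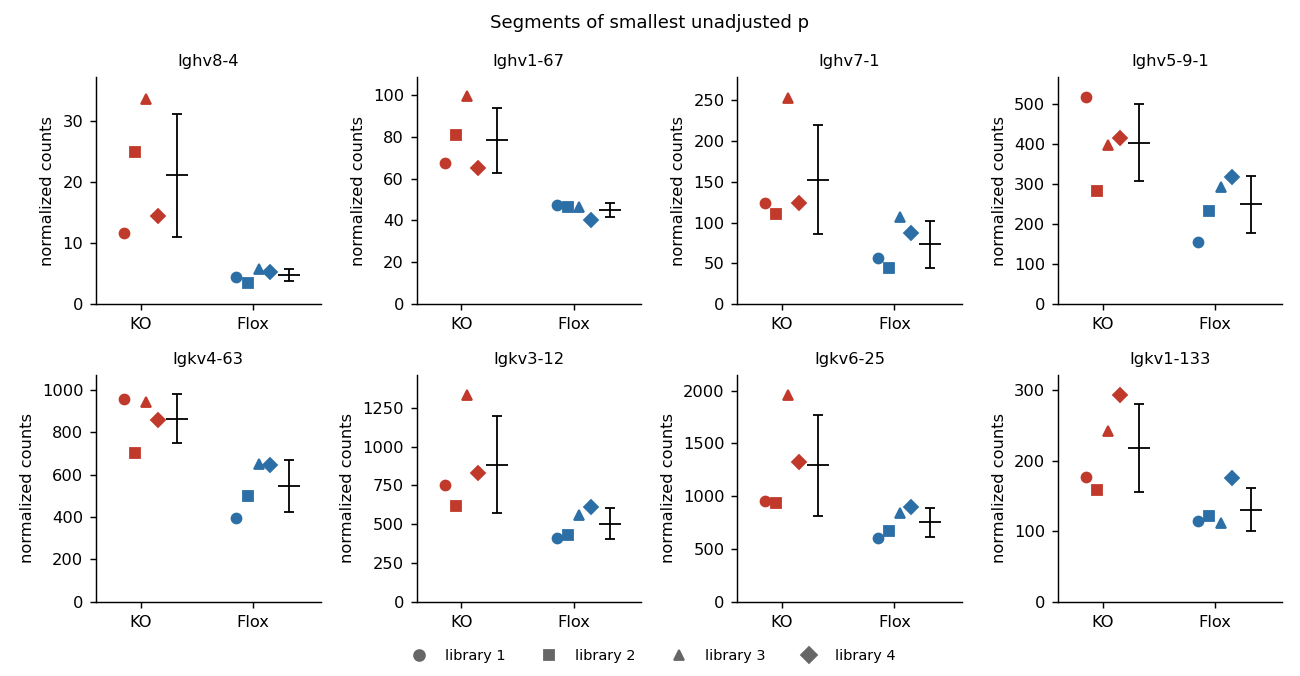
Normalised counts per library, KO left of Flox, with mean and SD, for the 4 heavy and 4 kappa segments of smallest unadjusted p; each y axis starts at 0. Igkv4-63 has all 4 KO libraries at 704 or above and all 4 Flox libraries at 650 or below.

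In all, 7 of 187 segments (3.74%) had every KO library above every Flox library, against 4.18% of all rows, and 0 had every KO library below, against 3.79% of all rows. By share of their chain, which does not move with the total V signal of a library, 10 of 184 heavy and kappa segments (5.43%) had every KO library above and 5 (2.72%) had every KO library below; no share of this kind exists for the other gene rows. The 7 by normalised counts are the segments above that do not overlap and Igkv5-45, named after its values were seen. Igkv5-45 was at 161, 164, 215 and 210 in KO, against 107, 154, 142 and 153 in Flox. As shares of heavy signal, Ighv1-67 and Ighv7-1 did overlap between genotypes. The lowest KO shares were 0.152% and 0.290%, and the highest Flox shares 0.206% and 0.307%, in the same order.

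Most segments had a positive fold change, and fewer did without KO 3. Of 187 segments, 147 (78.6%) had a log2 fold change above 0, against 48.5% of all rows, with a median of 0.24 against -0.01 over all rows. Without KO 3, 106 of 187 were above 0 and the median was 0.04. Both were the lowest among the 18 other settings, which reached up to 164 segments above 0 and a median of up to 0.376. By chain the median was 0.35 for heavy, 0.15 for kappa and 0.03 for lambda segments, and without KO 3 it was 0.06, 0.03 and -0.01 in the same order. KO 3 was the highest library for 121 of the 187 segments (64.7%, against 25.4% of all rows) and the lowest for 0.

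**Figure D4:**
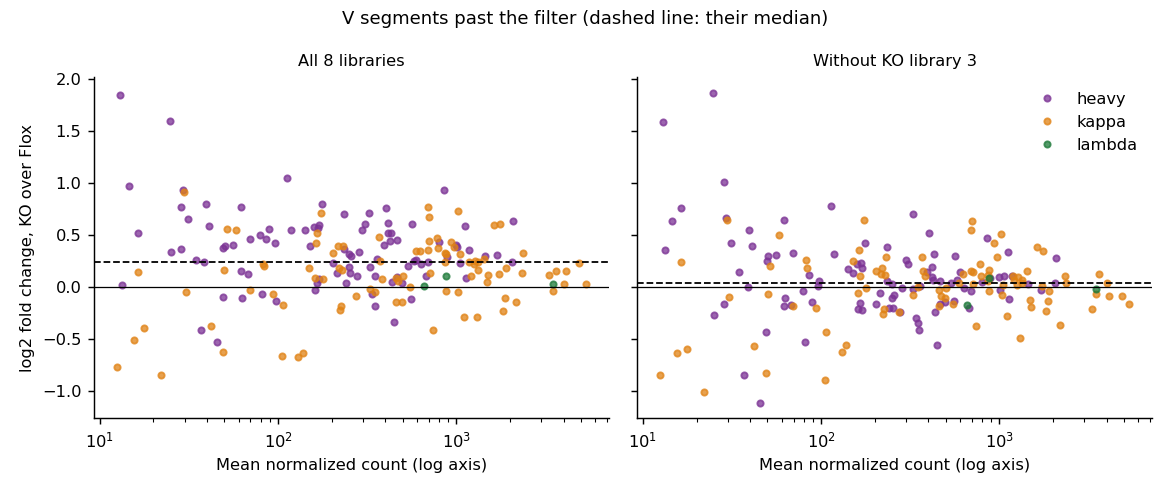
Each point is a V segment past the filter, with its mean normalised count on a log x axis and its log2 fold change, KO over Flox, on the y axis; the dashed line is the median. The median is 0.24 with all 8 libraries (left) and 0.04 without KO 3 (right).

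The 4 tested segments with the largest ratio of highest to median library were all heavy and all highest in KO 3. Ighv14-1 had 40.2, 39.1, 342 and 69.7 in KO, against 36.8, 44.5, 67.2 and 71.3 in Flox. Ighv5-16 had 688, 565, 2549 and 931 in KO, against 495, 380, 603 and 601 in Flox. Ighv1-84 reached 240.5 and Ighv1-31 reached 83.2 in KO 3.

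Across the loci, the 38 heavy segments nearest the J segments held 27.6 ± 1.24% of heavy signal in KO and 26.1 ± 1.12% in Flox, the next 38 held 45.0 ± 1.496% in KO and 45.0 ± 0.909% in Flox, and the 37 farthest held 27.4 ± 1.16% in KO and 28.9 ± 0.780% in Flox. For kappa, the 33 nearest held 36.6 ± 2.85% in KO and 34.9 ± 1.04% in Flox, and the 32 farthest held 41.4 ± 3.43% in KO and 43.8 ± 1.49% in Flox. KO 3 stood out at the kappa locus, with 40.8% in the nearest and 36.3% in the farthest segments. Without it the KO means were 35.3 ± 0.893% in the nearest and 43.1 ± 0.562% in the farthest kappa segments. For heavy segments they were 27.7 ± 1.47% in the nearest and 26.9 ± 0.506% in the farthest. Without KO 3, the farthest heavy share was 26.3 to 27.3% in KO, below the 28.3 to 30.0% of Flox. With KO 3, at 29.0%, the groups overlapped. The nearest heavy share and the nearest and farthest kappa shares overlapped also without KO 3, and none of these shares was tested. Kappa segments can join by deletion or by inversion, depending on their strand; those on the strand of Igkj1 held 45.4, 45.3, 38.6 and 44.1% in KO, against 44.0 to 44.8% in Flox, and the lowest of these was KO 3.

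**Figure D5:**
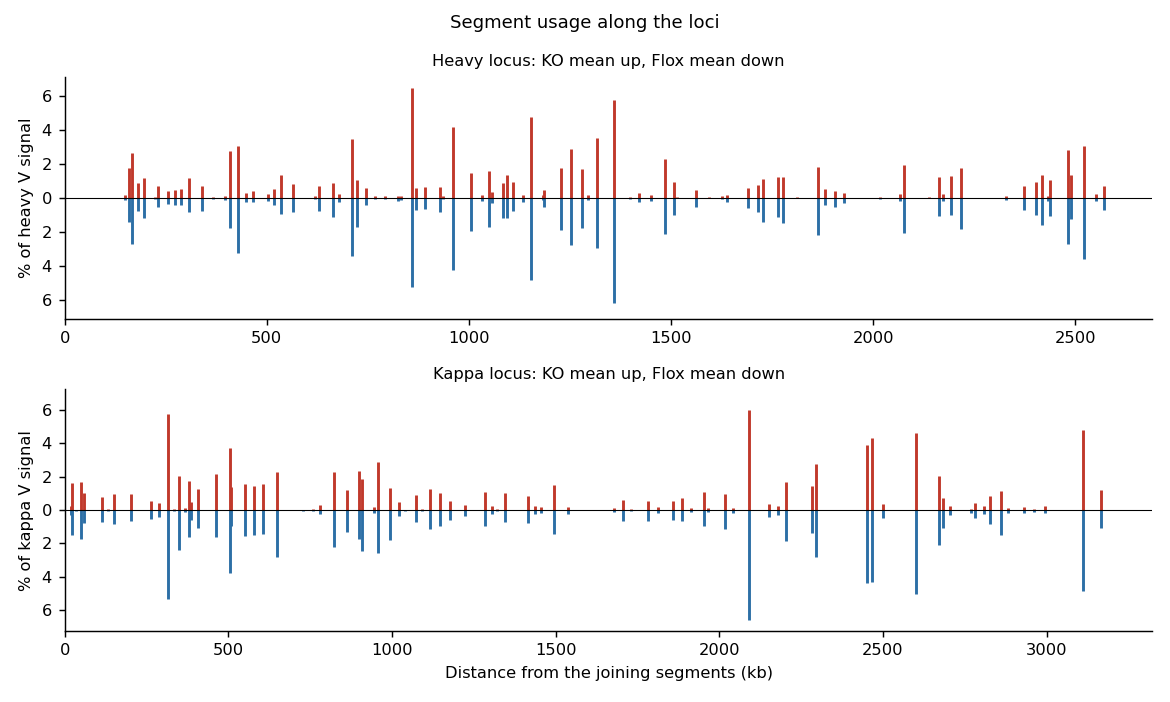
Each bar is a V segment at its distance in kb from the joining segments, with its mean % of heavy (top) or kappa (bottom) V signal drawn upward for KO and downward for Flox. The pattern of high and low segments is alike in both, with Ighv3-6 at 6.47% in KO and 5.25% in Flox.

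Pairs of libraries were compared by the % of signal that would have to move to another segment to make their usage equal. For heavy segments this was 7.71 to 13.5% within KO, 7.67 to 11.7% within Flox and 6.97 to 15.7% between KO and Flox. For kappa it was 8.31 to 15.8% within KO, 4.66 to 9.51% within Flox and 6.05 to 15.0% between them. The largest heavy distance was between genotypes and the largest kappa distance was within KO. KO 3 was the most distant library on both measures, with a median of 13.5% for heavy and 14.4% for kappa segments. Without KO 3 the largest distance was 10.4% within KO and 11.8% between genotypes for heavy segments, and 9.07% within KO and 10.2% between genotypes for kappa segments.

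Of genes that act on antibody loci, 17 promoter and enhancer factors were tested, and 0 passed the adjusted threshold; 7 were higher and 0 lower in KO at an unadjusted p under 0.05, against 7.74% and 7.39% of all rows, with a median log2 fold change of 0.19 against -0.01 over all rows. Pax5, which maintains B cell identity, averaged 2704 ± 225 normalised counts in KO and 1826 ± 253 in Flox (log2 fold change 0.57, limma adjusted p = 0.205). Of 14 V(D)J recombination genes, 11 were tested and 0 passed; Rag1 was listed at 0 in all 8 libraries and Rag2 had counts only in KO 1. The 10 hypermutation genes had 0 past the threshold and a median log2 fold change of 0.02. Of 4 surrogate light chain genes, only Vpreb3 was tested (log2 fold change -0.09). Of 10 constant genes tested, 0 passed and 9 had a positive log2 fold change, against 48.5% of all rows, with a median of 0.16.

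Ago2 regions, deposited as a pooled comparison whose direction by genotype is not named, overlapped 163 of the 187 tested segments (87.2%) on the same strand. All tested gene rows with a position gave 85.9%, and tested rows of similar span other than V segments gave 84.2%. On the opposite strand the share for tested V segments was 1.604%, and after a shift of 1000000 nt it was 4.81%. Regions also overlapped 12 of the 26 segments that were not tested (46.2%). Among these were Igkv1-131, Ighv1-71 and Ighv1-62-1, which were at 0 in all 8 RNA-seq libraries. An overlap alone therefore does not show that RNA of that segment was bound. The authors' region scores were highest at Igkv1-122 (49.4), Igkv1-110 (42.5) and Igkv1-117 (39.9), against 258.5 at Igkc and 207.8 at Ighm. These scores come from pooled samples and have no error.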

How the data were processed

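The members and gene lists were chosen with earlier results of these data known. Per the submitters' processing notes, cutadapt, Bowtie2, SAMtools, STAR, DESeq2 and DESeq were used, without versions or roles, and the build is named as mm9; the positions of all 213 segments overlap RefSeq's GRCm38.p6 entries of the same symbol, so coordinates are given as GRCm38. The deposited normalised values are a signal, gene counts divided by a size factor per library, per the file headers and the values. They stepped in whole reads for 100% of values (within 0.1 read). The deposited table also holds log2 values, GC content in percent, fold ratios, p-values and FDR by the authors, and the deposited CLIP summary gives a score per region. A further 4 deposited columns of CLIP tags have no named genotype and were not used.

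Main fits were limma (3.58.1) trend on log2 of the value plus 1 over rows with a mean of at least 10, KO minus Flox, adjusted by Benjamini-Hochberg over all rows; edgeR (4.0.16) and DESeq2 (1.42.0) ran on the recovered reads. Values per library were compared by exact permutation. The fits were also run on simulated counts in which every gene had the same setting of spread. That setting was not taken from V segments, so the simulation does not give error rates for them. Segments were named if they passed the threshold, were among the 6 highest per kb of a chain, the 4 of smallest p of a chain or the 4 with the largest ratio of highest to median library; families by the 4 largest shares and 3 smallest p. Alternatives were scaling, filter, pseudocount, test, replicate block, span and GC correction and left-out libraries. Same-numbered libraries are not said to share an animal, so no block was used. Some genes of the lists are not reported here.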

Additional observations from a re-analysis of the deposited data

Results flagged for a closer look

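In 7 of the 92 groups of 4 libraries checked, the highest or lowest library stood far from the others. Chance gives this in about 1 in 20 groups that are independent and not selected. These groups share their libraries, so that rate does not apply directly. KO 3 was the library in 3 of the 7: Ighv7-1 at 252.1 (other KO libraries 110.8 to 123.7), Ighv14-1 at 342.2 (39.1 to 69.7) and Ighv1-31 at 83.2 (15.6 to 22.7). Ighv14-1 and Ighv1-31 had been named for a large ratio of highest to median library, a choice that favours such a flag. KO 1 held 14.2% of its heavy signal in Ighv5 (other KO libraries 11.4 to 11.7%). In Flox, Ighv6-3 was at 1574.7 in Flox 3 (others 1081.2 to 1132.3), Igkv1-133 at 175.6 in Flox 4 (111.2 to 121.3) and Ighv1-67 at 40.3 in Flox 4 (46.2 to 47.3). The causes were not tested.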

How the results depend on the processing

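No family passed under any of the 18 other settings, and segments passed under DESeq2 alone, which called 4 where limma called 0. Families with an unadjusted p under 0.05 numbered 1 in limma (2.78%, against 15.4% of all rows) and 0 to 23 under the other settings. The replicate block gave 8 families (22.2%, against 14.2%) and the span and GC correction 8 (22.2%, against 15.7%). Together they gave 23 families (63.9%, against 15.6%). The single values per library stayed past no threshold, with a smallest p of 0.114 by exact permutation. With 1 library left out the smallest p possible is 0.0571, and with the replicate block it is 0.125. Those settings could therefore not pass 0.05 whatever the values, and they are no check of that outcome. The difference in lambda share was between -0.822 and 0.011 percentage points with each library left out in turn, that in heavy evenness between -0.00460 and 0.000826 (0.00179 without the most abundant segment) and that in kappa evenness between -0.00140 and 0.00506 (-0.000464 without the most abundant segment). Leaving out each library, log2 fold changes spanned -0.0183 to 0.436 for Ighv6, -0.0399 to 0.166 for Igkv1 and -0.0234 to 0.379 for Igkv6; the cause was not tested. Segments with an unadjusted p under 0.05 numbered 20 in limma (10.7%, against 15.1% of all rows) and 11 to 69 under the other settings; leaving out Flox 1 gave 11 (5.88%, against 15.8%), KO 2 gave 44 (23.5%, against 21.1%), and the span and GC correction 37 (19.8%, against 15.7%). Deviations of same-numbered libraries from their group means correlated at -0.09 to 0.00 over all tested rows and at -0.16 to 0.09 over V segments. Correlations over rows cannot register a rise or fall that all V segments share. By V share of all counts, libraries 3 and 4 lay above libraries 1 and 2 in both genotypes. Whether same-numbered libraries share a source of variation was not tested further. With the replicate block, 0 segments passed in limma and 42 had an unadjusted p under 0.05 (22.5%, against 14.2% of all rows). With the span and GC correction added there were 69 (36.9%, against 15.6%). Segments of few reads, such as Ighv8-4, are limited by depth.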

Other observations

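J segments, listed after the data were seen, were not members. Ighj3 had 331.9, 331.2, 454.4 and 221.3 normalised counts in KO, against 136.7, 137.9, 193.4 and 202.5 in Flox, and Ighj4 had 543.3, 507.3, 1148.1 and 421.4 in KO, against 249.4, 267.9, 393.7 and 332.7 in Flox. Every KO library was above every Flox library for both, as for 4.18% of all rows. The other J segments, Ighj1 and Ighj2 among them, overlapped between genotypes. Of the 9 J segments tested, 0 passed the adjusted threshold and 4, all heavy, were higher in KO at an unadjusted p under 0.05 in limma, against 7.74% of all rows. The log2 fold changes were 0.92, 0.78, 0.97 and 0.98 for Ighj1 to Ighj4, and 0.59, 0.49, 0.81 and 0.67 without KO 3. The 5 kappa J segments, Igkj1 to Igkj5, had log2 fold changes of -0.06, -0.26, -0.14, -0.38 and -0.18, and without KO 3 that of Igkj1 was 0.16.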
